A study of Mus musculus with 26 samples.

Results

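Aminoacyl-tRNA synthetases, the enzymes that load amino acids onto tRNAs, were followed at the mRNA level in oligodendrocyte progenitor cells (OPCs) and in oligodendrocytes (OLs). The members were the genes whose mouse symbol has the form of a synthetase name, which are a letter followed by ars, ars2 or arsl2, together with Farsa, Farsb and Eprs. Of these, 37 genes were analysed here, of the 10104 transcripts listed for either cell type, each represented by 1 canonical coding transcript. Of them 36 were listed for OPCs and 37 for OLs, since Pars2 was listed for OLs only, and 35 had a half-life in all 5 replicates. By the known site of the enzyme, 19 are cytosolic, 16 are mitochondrial, and Gars and Kars supply both compartments.

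The OPCs were derived from epiblast stem cells of the strain 129S/SvEv and were grown with bFGF and PDGFA. The OLs came from such OPCs and were differentiated with noggin, IGF-1, cyclic AMP, NT3 and the thyroid hormone T3, with the labelling begun 40 h into differentiation. The uridine analogue 5-ethynyluridine, which can be coupled to biotin, was given to both cell types for 24 h, and RNA was then collected at 0, 1, 2, 4 and 6 h of a uridine chase, in 3 OPC replicates and 2 OL replicates. By the study's account each OL replicate has a matching OPC replicate, and which ones match is not given in the sources used here. Labelled RNA was pulled down and sequenced, so a level here is taken as that of RNA made during the labelling. Its fall during the chase is read as decay, as in the study. The study set decay beside the modification of tRNAs in the same cells, with those for phenylalanine (Phe) and lysine (Lys) among them, and it also examined how far tRNAs were loaded with amino acids.

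Most cytosolic synthetases have a mitochondrial counterpart encoded by a separate nuclear gene, whose product is imported and serves the translation of the few proteins of the mitochondrial genome. Several cytosolic synthetases are held together with scaffold proteins in the multi-synthetase complex. Many cytosolic synthetase genes are induced by ATF4, the transcription factor of the response to amino acid shortage and endoplasmic reticulum stress. Inherited defects of several synthetases cause leukodystrophies, diseases of the white matter that oligodendrocytes form.

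Levels were given as FPKM, fragments scaled to transcript length and to the mapped reads of the library, and can therefore be compared between genes. The sum over listed transcripts at 0 h was 391712 to 432287 FPKM in OPCs and 342224 to 350563 FPKM in OLs, and the number of reads behind a value is unknown. The OL markers Mbp, Cnp, Mag, Mog and Mobp summed to 37.6 to 55.1 FPKM in OPCs, where 3 of the 5 were not listed, and to 2332 and 5197 FPKM in OLs. The 4 markers of dividing cells summed to 149 to 285 FPKM in OPCs and to 26.6 and 63.9 FPKM in OLs. The 4 OPC markers summed to 186 to 307 FPKM in OPCs and to 501 and 530 FPKM in OLs, where Gpr17, a gene of committed precursors, made up 299 and 323 FPKM. Both OL replicates lay above the OPC replicates for Gpr17 and Pdgfra and below them for Cspg4, at 29.9 and 30.7 FPKM against 35.7 to 55.7 FPKM, and the ranges of Ptprz1 overlapped. No marker of microglia or of pluripotent cells was listed, 1 of 4 astrocyte markers was listed in OPCs and 3 in OLs, and 1 of 4 neuron markers in OPCs and 2 in OLs. The OL cultures still held undifferentiated cells by the study's account. In such bulk samples, fewer cells that express a gene and less RNA of it per cell cannot be told apart, and the part of the cell make-up in the changes below was not tested.

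Lars2, the mitochondrial leucyl-tRNA synthetase, stood apart from every other member and is given as uncertain. It was listed at 1601, 1324 and 1714 FPKM in the OPC replicates and 2732 and 5039 FPKM in the OL replicates at 0 h, which was 10.6 to 66.0 times the next highest member of the same library. Its transcript (GRCm38, chr9:123366927-123462664, forward strand, 21 exons) carries, between bases 3163 and 3349 in the 3′ UTR, stretches of 97 and 50 bases that are 94.8% and 96.0% identical to the transcript AA474408 and a stretch of 72 bases that is 98.6% identical to the transcript Gm15564. How reads of these stretches were shared out is not known, and their part in the level was not tested.

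Other members share identical or nearly identical sequence with neighbours or copies. Iars matches the processed pseudogene Gm4849 over 1656 and 566 bases at 96.0% and 96.8% identity, and Aars shares the last 1326 bases of its 3′ UTR with Exosc6 on the same strand. Tarsl2 shares 122 bases with Tm2d3. On the opposite strand, Iars2 overlaps Rab3gap2 over 2034 bases, Nars2 overlaps C230038L03Rik over 284 bases, Cars2 overlaps Naxd over 217 and 211 bases, Fars2 overlaps Lyrm4 over 115 bases of its 5′ UTR, Mars overlaps Ddit3 over 68 bases of its 3′ UTR, and Hars and Hars2 overlap each other over 195 bases. Tars, Wars2 and Mars2 hold stretches of up to 154, 119 and 50 bases in their 3′ UTRs that match other genes at 94% identity or more. Whether reads were counted by strand is not given in the sources used here, so the values of these genes may hold reads of their partners.

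At 0 h the cytosolic enzymes were the more abundant class in every library. Their median level was 32.6, 34.6 and 31.9 FPKM in the OPC replicates and 37.2 and 33.3 FPKM in the OL replicates. The 14 mitochondrial enzymes other than Lars2 that were listed for both cell types had medians of 13.2, 11.8 and 10.1 FPKM in OPCs and 9.44 and 9.82 FPKM in OLs, beside 18.2, 19.8, 19.2, 18.9 and 20.2 FPKM for all 8177 transcripts. The ratio of the cytosolic to the mitochondrial median was thus 2.47, 2.94 and 3.16 in OPCs and 3.94 and 3.39 in OLs, and the groups of replicates did not overlap. The plot of levels by replicate shows this order. Gars, the glycyl-tRNA synthetase, was the highest member after Lars2 in all 5 libraries. Wars2, the mitochondrial tryptophanyl enzyme, was the lowest member in both OL libraries and in OPC replicate 2, and Tarsl2, a cytosolic enzyme, was the lowest in OPC replicates 1 and 3.

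**Figure D1:**
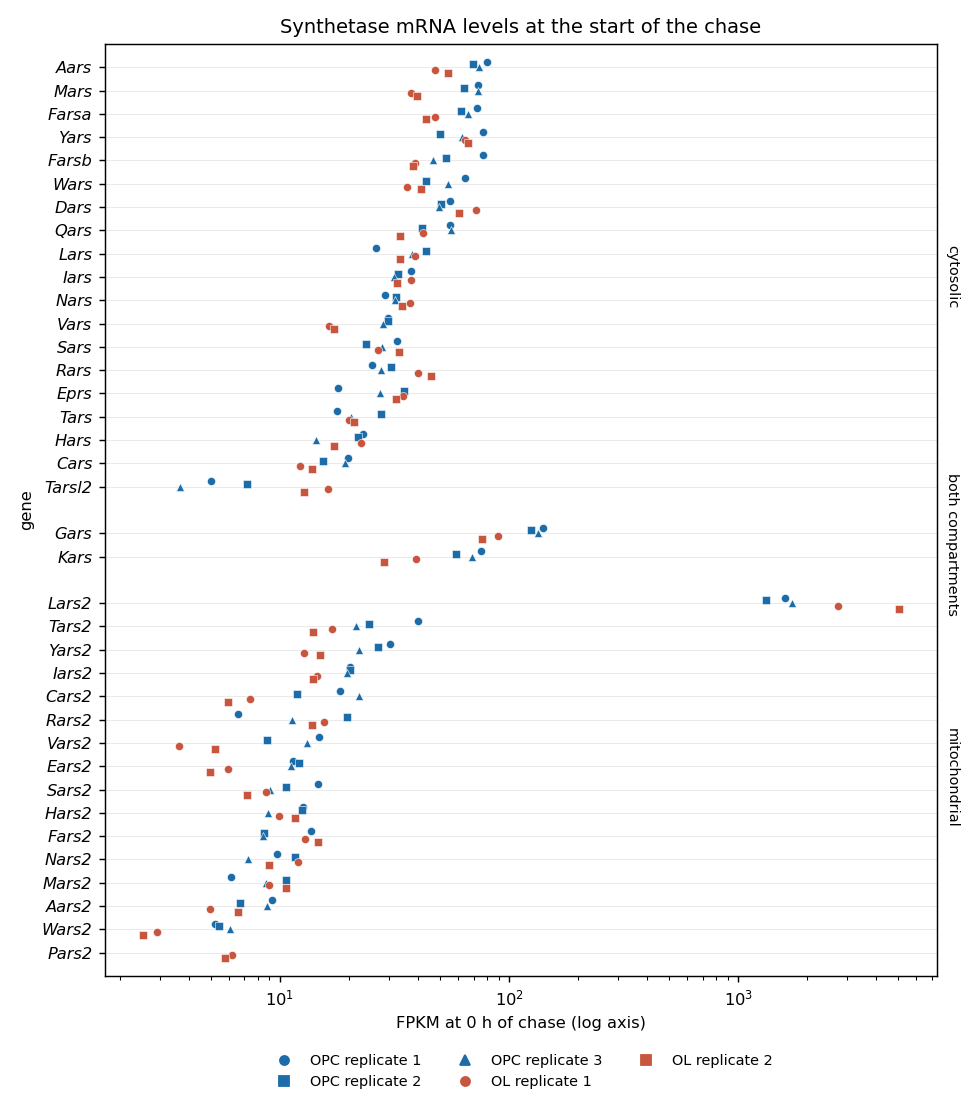
FPKM of each synthetase mRNA at 0 h of chase, on a log axis, with 1 point for each OPC replicate (blue) and OL replicate (red) and the genes grouped by compartment. Cytosolic enzymes lie mostly between 15 and 80 FPKM, mitochondrial enzymes mostly between 5 and 30 FPKM, and Lars2 lies far above every other gene in all 5 libraries.

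Levels at 0 h were then compared between OLs and OPCs with limma on log2(FPKM + 1) over all 8177 transcripts listed for both. Of 36 members, 11 were lower in OLs and 3 were higher at a Benjamini-Hochberg adjusted p under 0.05, which is 38.9% of them beside 31.6% of all transcripts. By direction, 17.5% of all transcripts were lower and 14.1% were higher in OLs. The median change of the members was -0.43 log2 units beside -0.01 for all transcripts. Without Lars2 there were 13 calls among 35 members. The number of calls was 3 without OL replicate 1, 2 without OL replicate 2 and 3 without OPC replicate 3, beside 14.5%, 17.9% and 17.7% of all transcripts, and 10 and 13 without OPC replicates 1 and 2, beside 33.1% and 35.6%. Without 1 OL replicate the lone OL sample is assumed to vary like the OPC replicates, so fewer calls then do not show a smaller change. The number was 8 with the replicate number as a block, beside 27.6% of all transcripts, where the calls of Ears2, Wars2, Vars, Gars, Aars, Farsa and Rars were lost and Tars2 was called lower. In an alternative chosen after seeing the data, each library was instead divided by its sum without Lars2, which sets all libraries to the same total apart from Lars2. Lars2 itself made up 0.338% to 1.47% of the summed FPKM at 0 h, and the sums were higher in OPCs than in OLs. On this scale the median of all transcripts moved to 0.28. Of the members, 4 were lower and 4 higher, or 11.1% each way, beside 10.3% lower and 22.8% higher among all transcripts. The split between lower and higher calls thus depends on the scale, and the changes below are on the scale of the deposited FPKM.

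**Figure D2:**
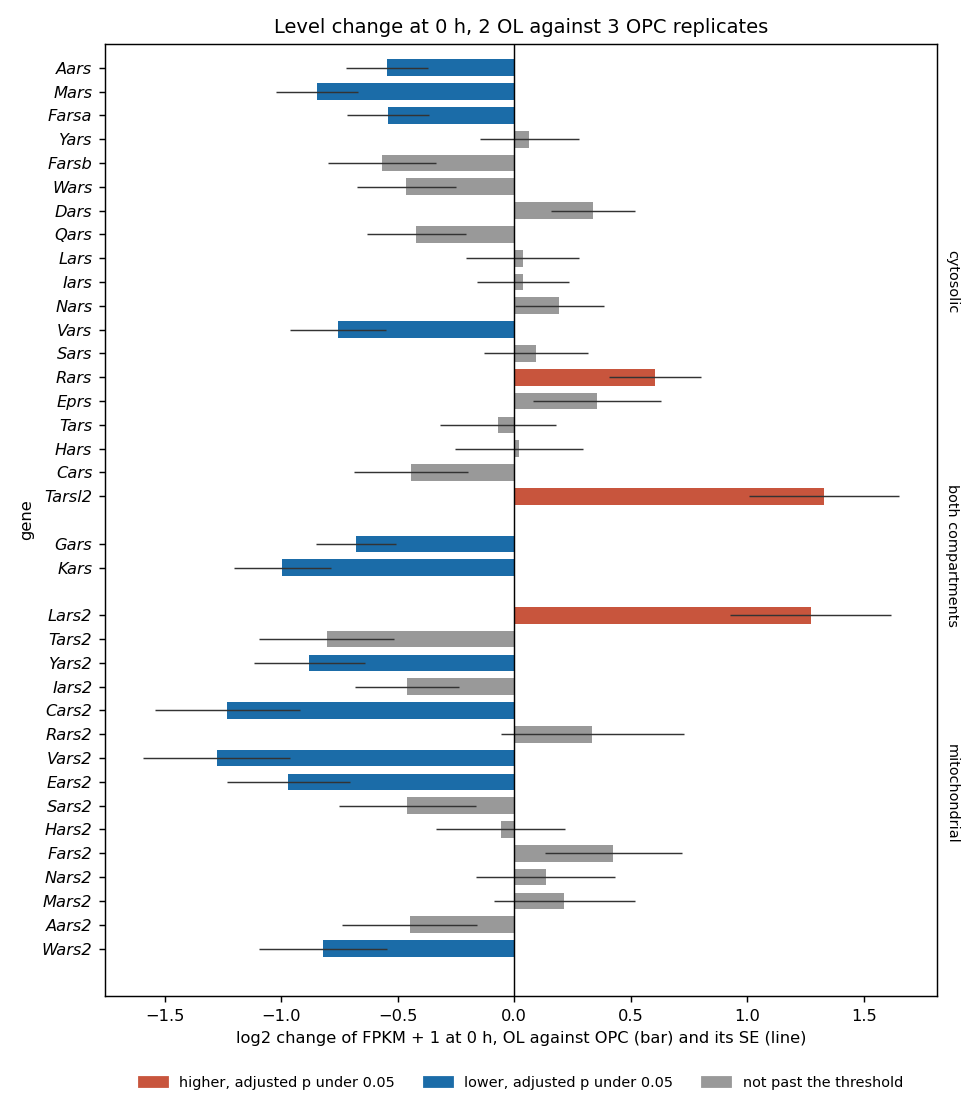
Change in level at 0 h, as log2 of FPKM + 1 in 2 OL replicates against 3 OPC replicates, with 1 bar for each of 36 synthetase genes and a line for its standard error. Bars to the left are lower in OLs, and the 14 coloured bars passed an adjusted p of 0.05.

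The 2 largest falls were in mitochondrial enzymes. Vars2, which serves valine, was at 14.8, 8.75 and 13.2 FPKM in the OPC replicates and 3.62 and 5.21 FPKM in the OL replicates, a log2 change of -1.28 ± 0.32 (SE), adjusted p = 0.0142. Cars2, which serves cysteine, was at 18.3, 11.9 and 22.1 FPKM in the OPC replicates and 7.44 and 5.92 FPKM in the OL replicates, a log2 change of -1.23 ± 0.31 (SE), adjusted p = 0.0157. Both OL replicates lay below all 3 OPC replicates for each of these genes, and the calls held in 10 and 9 of 12 alternatives.

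Ears2, the mitochondrial glutamyl-tRNA synthetase, was at 11.4, 12.2 and 11.1 FPKM in the OPC replicates and 5.90 and 4.95 FPKM in the OL replicates, with a change of -0.97 ± 0.27 (SE), adjusted p = 0.0218. Yars2, which serves tyrosine, was at 30.4, 26.9 and 22.0 FPKM in the OPC replicates and 12.7 and 14.98 FPKM in the OL replicates, with a change of -0.88 ± 0.24 (SE), adjusted p = 0.0210. Wars2 was at 5.23, 5.41 and 6.05 FPKM in the OPC replicates and 2.91 and 2.52 FPKM in the OL replicates, with a change of -0.82 ± 0.27 (SE), adjusted p = 0.0465. Both OL replicates again lay below the OPC replicates for all 3, and Lars2, with a change of 1.27 ± 0.35 (SE), adjusted p = 0.0216, was the mitochondrial gene called higher. The Wars2 call held in 4 of 11 alternatives, that of Ears2 in 7 of 12 and that of Yars2 in 9 of 12. Vars2 shares stretches of up to 130 bases with the antisense transcript Gm20483, and Ears2 has 89 bases of its 5′ UTR in common with Ubfd1 on the other strand.

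Among cytosolic enzymes, Mars, Vars, Aars and Farsa were lower, of which Farsa is given with the Phe enzymes below. Mars, the methionyl-tRNA synthetase that also loads the initiator tRNA, was at 72.8, 63.6 and 73.5 FPKM in the OPC replicates and 37.4 and 39.5 FPKM in the OL replicates, a change of -0.85 ± 0.18 (SE), adjusted p = 0.00658. Vars was at 29.5, 29.7 and 28.2 FPKM in the OPC replicates and 16.5 and 17.2 FPKM in the OL replicates, a change of -0.76 ± 0.21 (SE), adjusted p = 0.0213. Aars, which serves alanine, was at 80.4, 69.5 and 74.2 FPKM in the OPC replicates and 47.5 and 54.2 FPKM in the OL replicates, a change of -0.55 ± 0.18 (SE), adjusted p = 0.0412. The OL replicates lay below the OPC replicates for all of these. The Mars call held in 11 of 12 alternatives, that of Vars in 7 and that of Aars in 4.

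Rars and Tarsl2 went the other way. Rars, the arginyl-tRNA synthetase of the multi-synthetase complex, was at 25.3, 30.5 and 27.5 FPKM in the OPC replicates and 39.9 and 45.5 FPKM in the OL replicates, a change of 0.60 ± 0.20 (SE), adjusted p = 0.0435. Tarsl2, a second threonyl-tRNA synthetase, was at 4.99, 7.19 and 3.65 FPKM in the OPC replicates and 16.2 and 12.7 FPKM in the OL replicates, a change of 1.33 ± 0.32 (SE), adjusted p = 0.0129. Tars, the main cytosolic enzyme for threonine, was at 17.7, 27.7 and 20.4 FPKM in the OPC replicates and 19.9 and 21.1 FPKM in the OL replicates, a change of -0.07 ± 0.25 (SE), adjusted p = 0.852. The ranges of Tars overlapped between the cell types. The Rars call was lost without any 1 replicate other than OPC replicate 2, with the replicate block, with each replicate centred on its median and with no intensity trend, and that of Tarsl2 without OL replicate 1, OL replicate 2 or OPC replicate 3.

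Over all members, both OL replicates lay below the 3 OPC replicates in 18 of 36, beside 31.4% of all transcripts, and above them in 5, beside 28.0%. By class, 9 of 15 mitochondrial genes, 7 of 19 cytosolic genes and both Gars and Kars lay below. The 5 above were Dars, Nars, Rars, Tarsl2 and Lars2. The 22 members that passed no threshold had changes between -0.80 (Tars2, adjusted p = 0.0612) and 0.43 (Fars2).

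For lysine there is a single gene. Kars makes both the cytosolic and the mitochondrial lysyl-tRNA synthetase by alternative splicing (GRCm38, chr8:111993443-112011266, reverse strand, 15 exons). It was at 75.4, 59.0 and 69.0 FPKM in the OPC replicates and 39.1 and 28.4 FPKM in the OL replicates at 0 h, a change of -0.99 ± 0.21 (SE), adjusted p = 0.00669, or a factor of 1.99 lower on the scale of FPKM + 1. Relative to the summed level of the 19 cytosolic genes, a share that does not depend on the library scale, Kars stood at 9.21%, 8.05% and 9.17% in OPCs and at 5.70% and 4.25% in OLs. The OL values lay below the OPC values on both measures. Gars, the other gene that supplies both compartments, was at 140.2, 125 and 134 FPKM in the OPC replicates and 89.6 and 76.3 FPKM in the OL replicates, a change of -0.68 ± 0.17 (SE), adjusted p = 0.0156. The Kars call was lost without OL replicate 2 and held in each of the other 11 alternatives.

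For phenylalanine there are 3 genes. Farsa (chr8:84856989-84869257, forward strand, 13 exons) and Farsb (chr1:78425068-78488897, reverse strand, 17 exons) encode the α and β subunits of the cytosolic enzyme, and Fars2 (chr13:36117412-36537593, forward strand, 7 exons) encodes the mitochondrial enzyme. Farsa was at 72.5, 61.9 and 65.9 FPKM in the OPC replicates and 47.6 and 43.5 FPKM in the OL replicates, a change of -0.54 ± 0.18 (SE), adjusted p = 0.0430. Farsb was at 76.7, 52.9 and 46.7 FPKM in the OPC replicates and 38.7 and 38.1 FPKM in the OL replicates, a change of -0.57 ± 0.23 (SE), adjusted p = 0.0889. Fars2 was at 13.7, 8.496 and 8.47 FPKM in the OPC replicates and 12.8 and 14.7 FPKM in the OL replicates, a change of 0.43 ± 0.29 (SE), adjusted p = 0.296.

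The OL replicates lay below the OPC replicates for both subunits of the cytosolic enzyme, of which Farsa passed the threshold, and the ranges overlapped for Fars2. The subunits were close to each other in level, since log2 of Farsa over Farsb was -0.08, 0.23 and 0.50 in OPCs and 0.30 and 0.19 in OLs. Farsa exceeded Fars2 by factors of 5.29, 7.29 and 7.78 in OPCs and 3.70 and 2.96 in OLs. These ratios are taken within a library and do not depend on its scale. With 3 against 2 replicates the smallest p of an exact permutation test is 0.1, so none is given for a ratio. The Farsa call was lost in 8 of 12 alternatives, among them the one that sets each replicate to its median.

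The codons that the study was concerned with are UUU for Phe and AAA for Lys. The stretches of 10 codons with the most TTT and AAA codons in the coding sequences of these 4 genes, from GENCODE M21 transcripts on GRCm38, are printed to show how such codons lie in the genes that load those tRNAs, with TTT and AAA in capitals. In Fars2 no stretch of this length held more than 1 such codon.
Farsa codons 254 to 263: agctccttctggaacTTTgatgcactcTTT
Farsb codons 22 to 31: gaagagTTTgacgaactgtgtTTTgaaTTT
Fars2 codons 47 to 56: ccaggcagtgtgctggagatacttggtAAA
Kars codons 262 to 271: atcctgaacgacTTTgtgaggcagAAATTT

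Farsb was the member of these 4 with the highest bias to such codons. UUU made up 61.5% of its Phe codons (16 of 26) and AAA 46.8% of its Lys codons. In Farsa the shares were 20.8% and 19.4%, in Fars2 28.0% and 14.3%, and in Kars 38.5% and 33.3%. For all 8166 transcripts with a usable coding sequence the medians were 44.6% and 37.1%. The 19 cytosolic enzymes had medians of 47.5% and 39.0% and the 15 mitochondrial enzymes 36.4% and 34.6%, with ranges that covered most of each other.

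Genes known as ATF4 targets were looked at as a list of 12, of which 11 are cytosolic and Gars supplies both compartments. At 0 h, Mars, Gars and Aars were lower in OLs and none was higher, with a median change of -0.02 log2 units over the 12, beside 17.5% lower and 14.1% higher among all transcripts. The call of Aars held in 4 of 12 alternatives and that of Gars in 8. The other 8 cytosolic genes held 2 lower and 2 higher. ATF4 binds with C/EBP partners to sites that contain TGATGNAA. That motif, searched on both strands in RefSeq promoters (GRCm38.p6, from 250 bases before to 50 bases after a start site), was in the promoters of 5 of the 27 members that had one, which were Aars, Gars, Iars, Tars and Yars, beside 4.51% of 27025 genes. All 5 are on the ATF4 list, which has 7 genes with a promoter here, and 0 of 20 other members had the motif. The list was drawn from general knowledge of ATF4 targets, so the match is a description and no test. Cars, Hars, Hars2, Lars, Mars, Nars, Pars2, Rars, Vars and Wars had no promoter in the table.

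The match nearest the start site of each gene is printed to show the sites behind that list, in a window of 30 bases on the strand of the gene with the motif or its reverse complement in capitals.
Aars, chr8:111033840-111033869: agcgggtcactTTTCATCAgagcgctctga
Gars, chr6:55037960-55037989: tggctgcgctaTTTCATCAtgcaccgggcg
Iars, chr13:49682126-49682155: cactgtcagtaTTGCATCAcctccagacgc
Tars, chr15:11399655-11399684: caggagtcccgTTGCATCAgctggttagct
Yars, chr4:129189895-129189924: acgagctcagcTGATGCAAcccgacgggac

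The motif read TGATGNAA on the gene's own strand in Yars alone, and its reverse complement in the other 4 windows. The RefSeq promoter of Iars lies upstream of the start of the transcript measured here. Of these 5 genes, Aars and Gars were lower in OLs, while Iars was at 37.4, 32.7 and 31.6 FPKM in OPCs and 37.2 and 32.4 FPKM in OLs (a change of 0.04 ± 0.20 (SE), adjusted p = 0.906) and Yars at 77.3, 49.8 and 62.4 FPKM in OPCs and 64.1 and 66.1 FPKM in OLs (a change of 0.07 ± 0.21 (SE), adjusted p = 0.838). The ranges of Iars and Yars overlapped between the cell types.

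Of the 8 enzymes of the multi-synthetase complex, Rars was higher in OLs at 0 h, Kars and Mars were lower and 5 passed no threshold, with a median change of 0.04 log2 units. These 3 calls among 8 genes stand beside 31.6% of all transcripts called.

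Of the 5 genes linked to leukodystrophies, Rars was higher in OLs, Ears2 was lower, and 3 passed no threshold, beside 31.6% of all transcripts called. The Rars call held in 5 of 12 alternatives and the Ears2 call in 7, and both were lost with the replicate block. Dars, the cytosolic aspartyl-tRNA synthetase, was at 55.4, 50.6 and 49.3 FPKM in the OPC replicates and 71.5 and 60.2 FPKM in the OL replicates, a change of 0.34 ± 0.18 (SE), adjusted p = 0.177. Eprs, the fused glutamyl-prolyl-tRNA synthetase, was at 17.9, 34.6 and 27.3 FPKM in the OPC replicates and 34.4 and 32.0 FPKM in the OL replicates, a change of 0.36 ± 0.27 (SE), adjusted p = 0.349. Aars2, the mitochondrial alanyl enzyme, was at 9.22, 6.69 and 8.77 FPKM in the OPC replicates and 4.97 and 6.54 FPKM in the OL replicates, a change of -0.45 ± 0.29 (SE), adjusted p = 0.265. The OL replicates lay above the OPC replicates for Dars and below them for Aars2, and overlapped them for Eprs.

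During the chase the labelled mRNA of mitochondrial enzymes fell further than that of cytosolic enzymes. After 6 h the median cytosolic mRNA kept 23.1%, 29.7% and 39.7% of its 0 h level in OPCs and 46.5% and 58.0% in OLs. The median mitochondrial mRNA other than Lars2 kept 10.6%, 3.89% and 2.93% in OPCs and 29.1% and 35.5% in OLs, beside 14.8%, 11.3%, 18.1%, 33.0% and 39.4% for all transcripts. At 6 h the cytosolic median was thus above that of all transcripts in all 5 replicates and the mitochondrial median below it. At that time 5, 5 and 7 of the 14 mitochondrial mRNAs were listed at 0 in OPCs and 3 and 0 in OLs. In OPCs this was 35.7%, 35.7% and 50.0%, beside 14.4%, 20.3% and 15.2% of all transcripts. The part of the lower level of this class in these values was not tested. At 4 h the cell types were not yet apart for the cytosolic class, with medians of 74.8%, 69.3% and 85.2% in OPCs and 73.7% and 77.6% in OLs, nor for the mitochondrial class, at 64.9%, 11.4% and 29.5% in OPCs and 56.2% and 54.0% in OLs. All transcripts had medians of 39.6%, 21.2% and 37.8% in OPCs and 59.2% and 58.6% in OLs at 4 h, so the mitochondrial median lay above theirs in OPC replicate 1. These class medians are descriptions and carry no test.

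**Figure D3:**
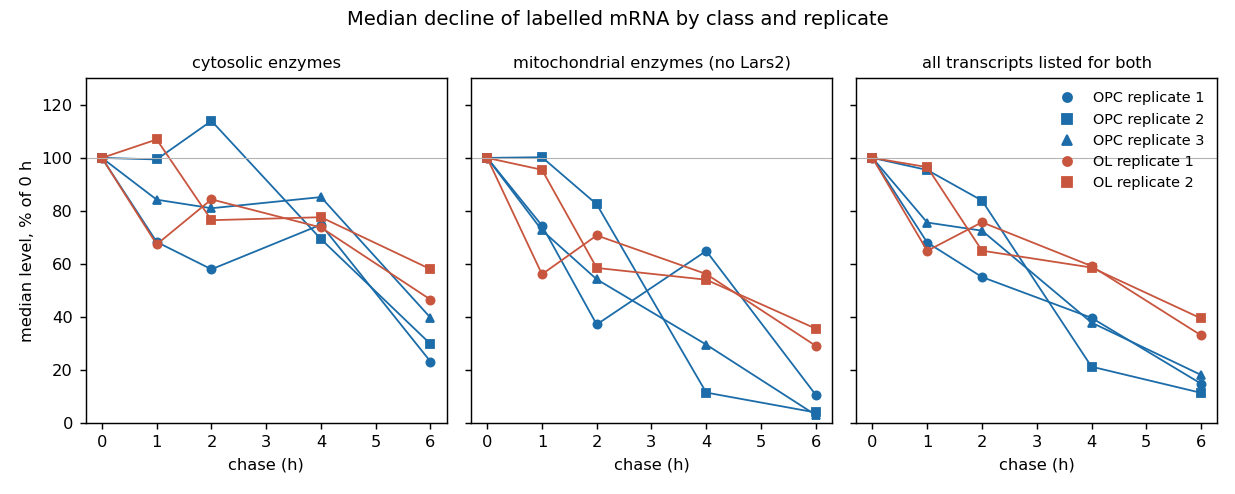
Median level relative to 0 h, in percent, against hours of chase for 19 cytosolic enzymes, 14 mitochondrial enzymes without Lars2 and all transcripts listed for both cell types, with 1 line for each OPC replicate (blue) and OL replicate (red). At 6 h each OPC line lies below both OL lines in all 3 panels.

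The fall was tested with limma as a slope of log2(FPKM + 1) on chase time, shared by the replicates of a cell type. The error is thus the scatter of single libraries around that slope, not the spread of slopes between replicates. In OPCs 29 of 36 members fell, beside 81.9% of all 8530 transcripts (87.0% changed in either direction, 5.06% by rising). In OLs 23 of 37 fell and 0 rose, beside 68.9% of 9751 transcripts (70.9% in either direction, 1.98% by rising). In OPCs 13 of 14 mitochondrial members without Lars2 fell, as did 15 of 19 cytosolic members, and in OLs 11 of 15 and 11 of 19. Lars2 rose in OPCs, by 0.17 ± 0.04 (SE) log2 units per h with an adjusted p of 7.73e-04, and Iars2, Dars, Eprs, Hars, Kars and Lars passed no threshold there. Without the 6 h libraries 19 members fell in OPCs and 12 in OLs, or 52.8% and 32.4%, beside 67.9% and 47.1% of all transcripts. When each library was set to the 0 h median of its replicate, which takes out the fall that all transcripts share, 8 members fell and 17 rose in OPCs and 3 fell and 17 rose in OLs. Among all transcripts 25.2% fell and 33.9% rose in OPCs and 19.3% fell and 30.9% rose in OLs on that scale.

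Values at 6 h relative to 0 h show the members in turn, where 0% means that a transcript was listed at 0. The medians of all transcripts were themselves apart at 6 h, at 14.8%, 11.3% and 18.1% in OPCs and 33.0% and 39.4% in OLs. The share of all transcripts whose OL values lay above every OPC value at 6 h was not computed. OL values above OPC values are therefore given as a description and not as a trait of the members. Among mitochondrial enzymes, Fars2 stood at 0%, 0% and 0% in OPCs and 25.3% and 36.4% in OLs. Ears2 stood at 0%, 0% and 0% in OPCs and 0% and 28.6% in OLs, and Rars2, which serves arginine, at 0%, 0% and 0% in OPCs and 0% and 25.6% in OLs. Yars2 stood at 0%, 0% and 5.86% in OPCs and 35.4% and 32.7% in OLs. Each of these was at or close to 0 in the OPC replicates.

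Aars2 stood at 14.1%, 4.87% and 0% in OPCs and 46.5% and 37.4% in OLs. Hars2, which serves histidine, stood at 10.7%, 2.90% and 0% in OPCs and 22.8% and 31.5% in OLs, and Wars2 at 21.6%, 4.89% and 0% in OPCs and 19.1% and 32.6% in OLs. Tars2, which serves threonine, stood at 16.0%, 8.78% and 0% in OPCs and 33.7% and 34.7% in OLs. For these 4 genes both OL replicates, except OL replicate 1 of Wars2, lay above all OPC replicates.

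Mars2, the mitochondrial methionyl enzyme, stood at 10.1%, 6.91% and 14.4% in OPCs and 23.1% and 20.7% in OLs. Sars2, which serves serine, stood at 10.4%, 0% and 16.0% in OPCs and 38.8% and 47.8% in OLs. Both OL replicates were above the OPC replicates for these. Cars2 stood at 0%, 27.7% and 14.4% in OPCs and 0% and 95.6% in OLs and Vars2 at 21.8%, 2.38% and 64.7% in OPCs and 119% and 40.9% in OLs, with wide scatter among replicates. Nars2, the asparaginyl enzyme, stood at 29.7%, 12.2% and 56.8% in OPCs and 37.3% and 50.0% in OLs. Pars2, the prolyl enzyme that was listed in OLs only, stood at 12.9% and 9.97% there, the lowest OL values of the class apart from values of 0. Iars2 kept the most of the class in all 3 OPC replicates after Lars2, at 55.6%, 44.6% and 84.1% in OPCs and 32.8% and 65.0% in OLs.

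Cytosolic mRNAs ranged from nearly gone to nearly unchanged in OPCs. Cars, which serves cysteine, stood at 0%, 0% and 0% in OPCs and 7.65% and 41.5% in OLs, and Iars at 0%, 0% and 8.03% in OPCs and 35.2% and 34.8% in OLs. Rars stood at 10.8%, 0% and 10.0% in OPCs and 0% and 40.9% in OLs. Tars stood at 12.02%, 4.52% and 24.5% in OPCs and 1.70% and 59.7% in OLs and Tarsl2 at 6.58%, 11.2% and 42.7% in OPCs and 6.49% and 42.9% in OLs. Cars and Iars were at or close to 0 in OPCs, with both OL replicates above them, while Rars, Tars and Tarsl2 scattered widely between the OL replicates.

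Farsa stood at 8.74%, 22.4% and 9.36% in OPCs and 31.7% and 47.1% in OLs and Farsb at 0%, 30.0% and 33.6% in OPCs and 33.6% and 57.1% in OLs. Both OL replicates lay above all 3 OPC replicates for each subunit, although OL replicate 1 and OPC replicate 3 of Farsb were the same to 3 digits. The plot of the Phe and Lys enzymes shows the steep drop of Farsa in OPCs between 4 and 6 h. At 4 h Farsa still stood at 64.4%, 77.3% and 61.1% in OPCs.

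**Figure D4:**
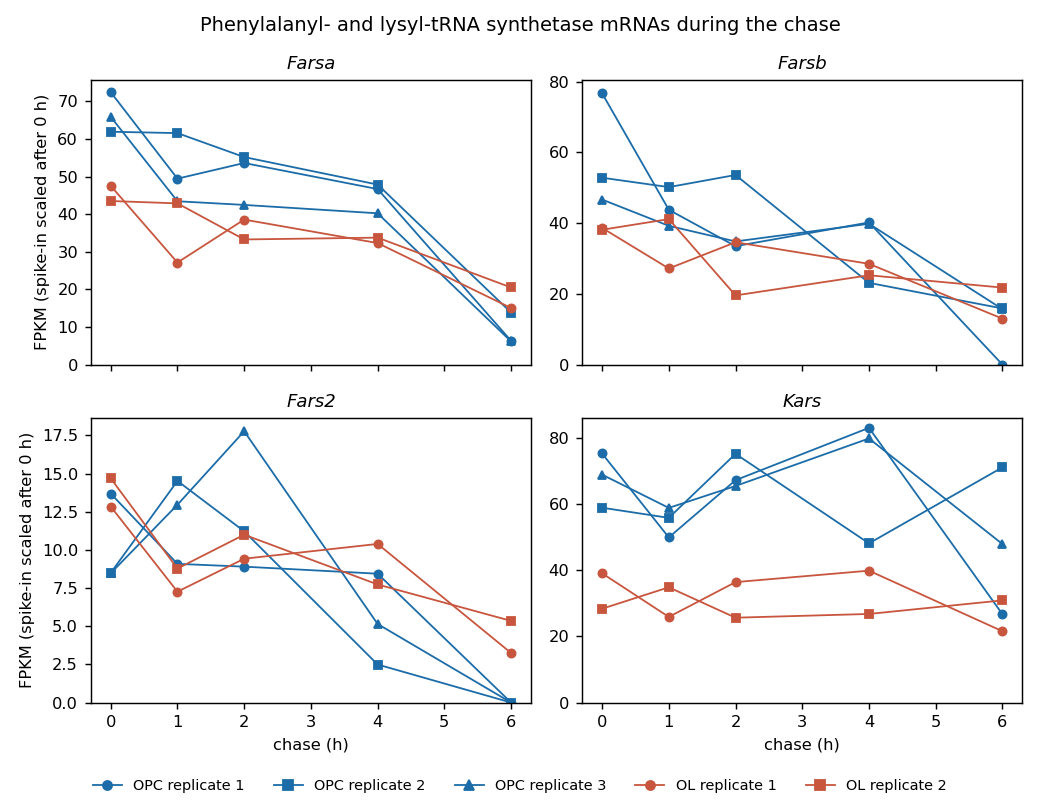
FPKM of Farsa, Farsb, Fars2 and Kars against hours of chase, with 1 line for each OPC replicate (blue) and OL replicate (red). Fars2 is listed at 0 in all 3 OPC replicates at 6 h, whereas Kars shows no steady fall in either cell type and lies lower in OLs from the start.

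Aars stood at 22.8%, 17.6% and 39.7% in OPCs and 49.3% and 45.5% in OLs. Yars, the tyrosyl enzyme, stood at 19.7%, 20.6% and 35.2% in OPCs and 45.3% and 49.3% in OLs and Sars, the seryl enzyme, at 23.1%, 29.7% and 34.6% in OPCs and 60.3% and 75.1% in OLs. Mars stood at 39.8%, 31.5% and 31.4% in OPCs and 74.1% and 59.9% in OLs and Qars, which serves glutamine, at 23.6%, 32.5% and 43.1% in OPCs and 47.0% and 58.0% in OLs. In all 5 genes the OL replicates lay above the OPC replicates, as did the medians of all transcripts. Nars, the cytosolic asparaginyl enzyme, stood at 25.8%, 59.0% and 44.7% in OPCs and 33.4% and 91.8% in OLs. Vars stood at 48.8%, 12.4% and 39.9% in OPCs and 88.7% and 47.5% in OLs and Wars, which serves tryptophan, at 37.4%, 79.9% and 69.2% in OPCs and 78.0% and 68.9% in OLs. The ranges of Nars, Vars and Wars overlapped between the cell types.

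Of the remaining members, Eprs stood at 105%, 95.7% and 124% in OPCs and 60.9% and 121% in OLs and Lars, the cytosolic leucyl enzyme, at 96.8%, 92.0% and 111% in OPCs and 46.5% and 78.4% in OLs. Dars stood at 50.2%, 72.9% and 92.0% in OPCs and 55.0% and 112% in OLs. Kars stood at 35.5%, 121% and 69.5% in OPCs and 55.2% and 109% in OLs and Gars at 39.8%, 71.0% and 64.4% in OPCs and 45.3% and 64.4% in OLs. Hars, the histidyl enzyme, stood at 42.3%, 56.8% and 75.9% in OPCs and 58.5% and 162% in OLs. Lars lay lower in both OL replicates than in the OPC replicates, and the ranges of the other 5 overlapped. Of these 6, Gars passed the test for a fall in both cell types and Lars in OLs, and Dars, Eprs, Hars and Kars in neither. Lars2, which is uncertain as above, stood at 174%, 173% and 171% in OPCs and 455% and 65.9% in OLs.

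The deposited half-lives showed the same order of classes. They were fitted to each replicate with a ceiling of 6 h, so a value of 6 h means a fitted half-life of 6 h or longer. Such a value does not show that the mRNA was still present at 6 h of chase. Iars in OPC replicate 3 was listed at 6 h with 8.03% left, and Cars2 in OL replicate 1 with 0% left. The median cytosolic half-life was 4.41 h in OPC replicate 1 and at the ceiling in the other 4 replicates, while the median mitochondrial half-life was 2.02, 1.96 and 1.96 h in OPCs and 3.78 and 3.66 h in OLs. All 8112 transcripts with a half-life in every replicate had medians of 2.35, 2.08 and 2.83 h in OPCs and 4.54 and 4.44 h in OLs. At the ceiling were 5, 11 and 10 of 19 cytosolic members in OPCs and 12 and 11 in OLs, against 1, 0 and 2 of 14 mitochondrial members in OPCs and 4 and 1 in OLs. Of all transcripts, 24.5%, 25.3% and 31.6% were at the ceiling in OPCs and 42.3% and 38.8% in OLs. Dars, Eprs, Gars and Kars were at the ceiling in all 5 replicates.

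**Figure D5:**
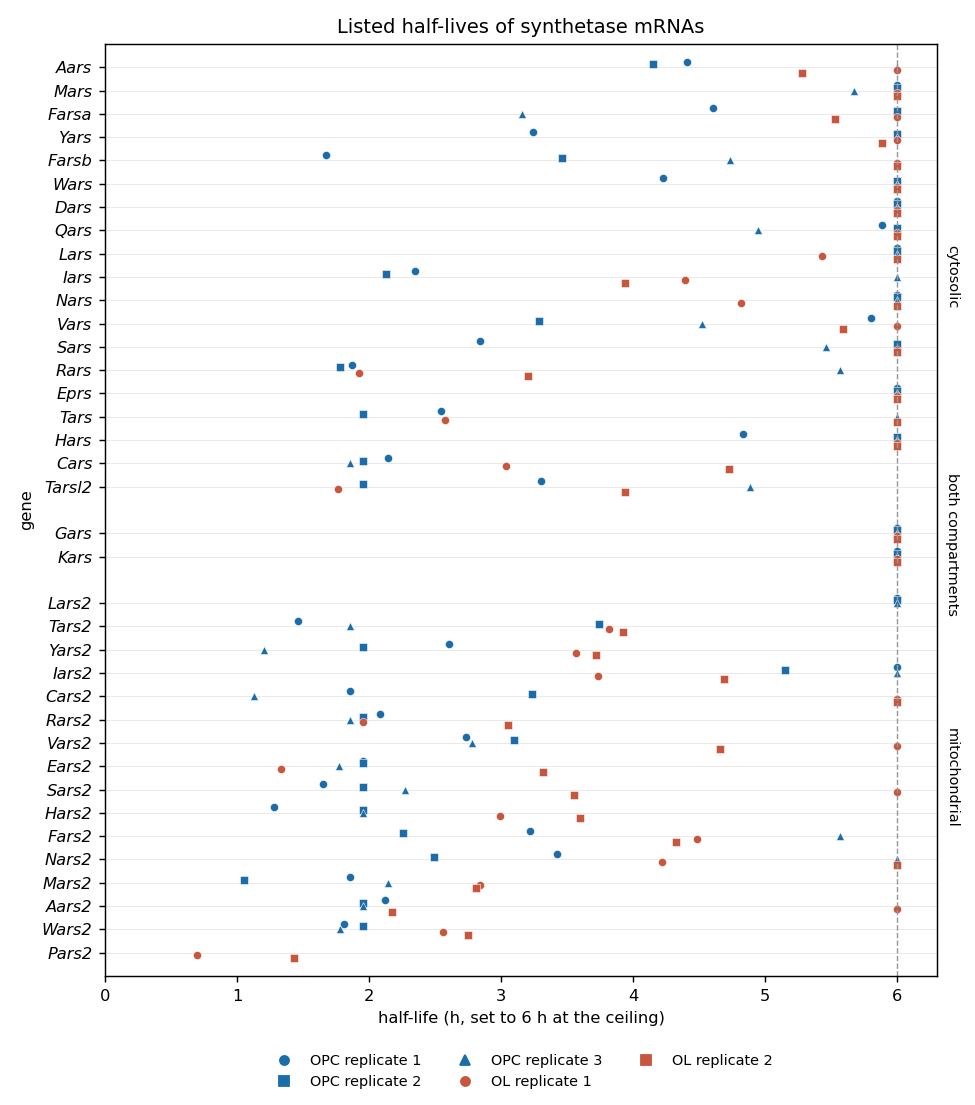
Listed half-life of each synthetase mRNA in hours, with 1 point for each OPC replicate (blue) and OL replicate (red), genes grouped by compartment and a dashed line at the 6 h ceiling. Mitochondrial enzymes cluster near 2 h in OPCs, and many cytosolic enzymes lie on the ceiling in most replicates.

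Several listed values coincide because of the fit. A profile that stays at its 0 h level up to 2 h and is 0 from 4 h on gives a half-life of 1.96 h, and 10 of 35 members were listed within 0.01 h of it in OPC replicate 2, where the level of many transcripts dropped between 2 and 4 h. In the other replicates 0 to 2 members were listed in that range. A refit came within 0.02 h of the listed value for all 35 members in 4 replicates and for 34 in OPC replicate 1.

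No member passed the threshold when half-lives were compared between OLs and OPCs with limma on log2 half-life, beside 3.54% of all transcripts (3.39% longer and 0.148% shorter in OLs). An unadjusted p under 0.05 was reached by 7 of 35 members, or 20.0%, beside 23.0% of all transcripts. The median change was 0.34 log2 units for the members and 0.37 for all transcripts. With each replicate centred on its median these were -0.56 and -0.53, and without the 6 h libraries 0.18 and 0.23. With libraries rescaled to the mean decay curve the members had -0.007. The direction of the median change thus depended on the scale. As deposited, the median change was 0.82 for the 14 mitochondrial members and 0.17 for the 19 cytosolic members. Many of the cytosolic members were already at the ceiling in OPCs, where a longer half-life could not be seen. Both OL half-lives lay above all 3 OPC half-lives in 11 members, of which 9 were mitochondrial, beside 35.9% of all transcripts.

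The largest lengthening was in Cars2, at 1.86, 3.24 and 1.13 h in OPCs and 6.00 and 6.00 h in OLs, a log2 change of 1.66 ± 0.53 (SE), adjusted p = 0.196. In OL replicate 1 the level of Cars2 was listed at 0 at 6 h of chase, so its half-life there is uncertain. Sars2 followed at 1.65, 1.96 and 2.27 h in OPCs and 6.00 and 3.55 h in OLs, a change of 1.25 ± 0.31 (SE), adjusted p = 0.137. Farsb was at 1.67, 3.46 and 4.74 h in OPCs and 6.00 and 6.00 h in OLs, a change of 0.99 ± 0.53 (SE), adjusted p = 0.408. The OL values lay above the OPC values for all 3 genes, and the 3 OPC values of Farsb were themselves spread widely.

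The smallest adjusted p belonged to Wars2, at 1.81, 1.96 and 1.78 h in OPCs and 2.56 and 2.75 h in OLs, with a change of 0.52 ± 0.06 (SE), adjusted p = 0.0544. Vars2 was at 2.73, 3.10 and 2.78 h in OPCs and 6.00 and 4.66 h in OLs, with a change of 0.88 ± 0.14 (SE), adjusted p = 0.0779. Farsa was at 4.60, 6.00 and 3.16 h in OPCs and 6.00 and 5.53 h in OLs and Fars2 at 3.22, 2.26 and 5.57 h in OPCs and 4.48 and 4.32 h in OLs, with changes of 0.38 ± 0.33 (SE), adjusted p = 0.610 for Farsa and 0.36 ± 0.45 (SE), adjusted p = 0.732 for Fars2. The replicates of Farsa and Fars2 overlapped between the cell types.

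Shorter listed half-lives in OLs were led by Iars2, at 6.00, 5.15 and 6.00 h in OPCs and 3.73 and 4.69 h in OLs, a change of -0.45 ± 0.14 (SE), adjusted p = 0.204. Tarsl2 was at 3.31, 1.96 and 4.88 h in OPCs and 1.76 and 3.94 h in OLs, a change of -0.26 ± 0.61 (SE), adjusted p = 0.939, and Nars at 6.00, 6.00 and 6.00 h in OPCs and 4.82 and 6.00 h in OLs, a change of -0.16 ± 0.11 (SE), adjusted p = 0.518. Of these, only the replicates of Iars2 did not overlap, beside 2.01% of all transcripts that lay wholly lower in OLs. When libraries were rescaled to the mean decay curve, 1 member was called shorter, or 2.86%, beside 2.37% of all transcripts shorter and 1.06% longer.

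Among the leukodystrophy genes, Dars and Eprs were at the ceiling throughout. Rars was at 1.87, 1.78 and 5.56 h in OPCs and 1.92 and 3.20 h in OLs, Aars2 at 2.12, 1.96 and 1.96 h in OPCs and 6.00 and 2.17 h in OLs and Ears2 at 1.96, 1.96 and 1.77 h in OPCs and 1.33 and 3.32 h in OLs. The ranges of Rars and Ears2 overlapped between the cell types, and those of Aars2 did not.

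The slope of the fall itself differed between the cell types for 10 of 36 members at an adjusted p under 0.05 in limma, and all 10 fell more slowly in OLs. The fit took 25 libraries with a common slope for each cell type. Its p measures the scatter of libraries around these slopes, and the spread of slopes between replicates was not tested. Of all transcripts 31.5% fell more slowly and 0.404% fell faster in OLs, beside 27.8% and 0% of members. The 10 were 7 mitochondrial genes (Yars2, Fars2, Hars2, Aars2, Tars2, Ears2 and Wars2) and 3 cytosolic genes (Iars, Cars and Farsa), out of 15 and 19. The median difference was 0.23 log2 units per h for mitochondrial members, 0.12 for cytosolic members and 0.14 for all transcripts. There was 1 call without OL replicate 1 and 1 without OL replicate 2, or 2.78% of members, beside 9.20% and 11.6% of all transcripts that fell more slowly. There were 6 calls without OPC replicate 2, or 16.7%, beside 20.6%, and 1 without the 6 h libraries, beside 19.3%. With 0.1 in place of 1 added to the FPKM there were 8 calls, or 22.2%, beside 36.7% of all transcripts that fell more slowly. The calls of Wars2, Ears2 and Tars2 were lost there. With each library set to its 0 h median the median of all transcripts moved to -0.03, and 4 members (Yars2, Fars2, Hars2 and Cars) fell more slowly and 8 faster, beside 10.2% slower and 24.0% faster among all transcripts, and the calls of the other 6 were lost.

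Yars2 had the largest difference, at 0.53 ± 0.13 (SE) log2 units per h with an adjusted p of 0.00278, from slopes of -0.75 ± 0.09 in OPCs and -0.22 ± 0.05 in OLs. Iars differed by 0.47 ± 0.13 with an adjusted p of 0.00688, and Fars2 by 0.39 ± 0.12 with an adjusted p of 0.0142. Farsa differed by 0.23 ± 0.09 with an adjusted p of 0.0426, which turned to -0.01 when each library was set to its 0 h median. Kars, by contrast, had slopes of -0.06 ± 0.05 in OPCs and -0.04 ± 0.04 in OLs, a difference of 0.02 ± 0.07 with an adjusted p of 0.824. On that other scale the difference for Kars was -0.24. The largest differences toward a faster fall in OLs were those of Lars at -0.13 ± 0.07, Eprs at -0.09 ± 0.08 and Iars2 at -0.08 ± 0.09, and none passed the threshold.

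The fall of labelled mRNA was also set against the codons of the members. Across the 35 members with half-lives, Spearman's rho between the share of UUU among Phe codons and half-life was 0.14, 0.19 and 0.36 in OPCs and -0.18 and 0.18 in OLs. For the share of AAA among Lys codons it was 0.10, -0.03 and 0.12 in OPCs and -0.28 and 0.11 in OLs. The points are genes of the same libraries and share base composition and the ceiling, so no p is given. For UUU the 3 OPC values were positive and the OL values differed in sign, and for AAA the sign differed between replicates of both cell types. Over 8068 transcripts rho for UUU was 0.05, -0.04 and 0.05 in OPCs and -0.22 and -0.08 in OLs, and over 8090 transcripts rho for AAA was 0.03, -0.08 and 0.04 in OPCs and -0.26 and -0.12 in OLs. Both OL values were thus negative over all transcripts for either codon.

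The other genes of the pathway were 14, of which 10 were listed for both cell types. Aimp2, a scaffold protein of the multi-synthetase complex, was at 63.6, 38.9 and 47.9 FPKM in OPCs and 24.3 and 30.8 FPKM in OLs at 0 h, a change of -0.82 with an adjusted p of 0.0290 in limma. Its half-life of 1.53, 2.11 and 1.86 h in OPCs against 6.00 and 5.79 h in OLs was called longer, with a log2 change of 1.70 and an adjusted p of 0.0401. That call was lost with the replicate block, where 0 of 8112 transcripts were called by half-life, and with each replicate centred on its median, where 0 were called longer. Aarsd1, which serves the editing of wrongly loaded tRNAs, was at 27.2, 20.3 and 23.3 FPKM in OPCs and 13.8 and 10.9 FPKM in OLs, a change of -0.88 with an adjusted p of 0.0239. These 2 of 10 were the genes called at 0 h, both lower in OLs, beside 17.5% lower among all transcripts. Aimp2 and the scaffold protein Eef1e1 fell more slowly in OLs, with slope differences of 0.44 and 0.47 log2 units per h and adjusted p of 0.00301 and 0.00394. The 3 subunits of the mitochondrial amidotransferase, Gatb, Gatc and Qrsl1, which makes Gln-tRNA in place of a mitochondrial glutaminyl enzyme, passed no threshold in any comparison between the cell types. Aimp1 was listed for OLs only, and Mtfmt, Pstk and Prorsd1 were listed for neither.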

How the data were processed

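Labelled RNA was measured in 15 OPC and 10 OL libraries, and a library without biotin was not analysed here. Per the study's methods and the submitters' processing notes, reads of rRNA-depleted, pulled-down RNA were aligned to GRCm38 with HISAT2 2.1.0 and quantified with StringTie 1.3.5 for canonical coding transcripts of GENCODE M9. The authors deposited FPKM, unscaled at 0 h and scaled to spike-ins later, for transcripts of at least 1 FPKM at 0 h, and half-lives in h fitted to each replicate by least absolute deviations with a ceiling of 6 h. The values were used without further rescaling except in the alternatives. Levels and slopes were compared with limma 3.58.1 (R 4.3.3) on log2(FPKM + 1) with an intensity trend, and half-lives with limma on log2 half-life, with Benjamini-Hochberg adjustment over all transcripts; scripts were tested on simulated data. Shared sequence was searched with blastn 2.17.0 (50 bases or more at 94% identity or more). Replicates were biological replicates by the study's account, each OL replicate with a matching OPC replicate, which the fits without a block do not take into account. Values in every replicate are given for members past a threshold, the 3 largest changes each way, the Phe, Lys and leukodystrophy genes, and the rest by range and count. Members and lists were chosen with earlier results of these data known. Some items are not reported here, among them 1 gene that matches the rule for members. Read depth is unknown, so no counting interval is given.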

Additional observations from a re-analysis of the deposited data

Results flagged for a closer look

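A test of the difference in slope between the cell types called 10 of 36 members, whose labelled mRNA fell more slowly in OLs than in OPCs. That is 27.8% beside 31.5% of all transcripts. The p of this test measures the scatter of single libraries around a slope shared by replicates, not the spread of slopes between replicates. There was 1 call each, or 2.78% of members, without OL replicate 1, without OL replicate 2 and without the 6 h libraries, beside 9.20%, 11.6% and 19.3% of all transcripts that fell more slowly. By limma, the difference in slope with its SE, in log2 units per h, was Yars2 by 0.53 ± 0.13 with an adjusted p of 0.00278, Iars by 0.47 ± 0.13 with an adjusted p of 0.00688, Fars2 by 0.39 ± 0.12 with an adjusted p of 0.0142 and Cars by 0.37 ± 0.11 with an adjusted p of 0.0128. It was Hars2 by 0.35 ± 0.09 with an adjusted p of 0.00486, Aars2 by 0.34 ± 0.12 with an adjusted p of 0.0322 and Tars2 by 0.31 ± 0.11 with an adjusted p of 0.0271. It was Farsa by 0.23 ± 0.09 with an adjusted p of 0.0426, Ears2 by 0.23 ± 0.08 with an adjusted p of 0.0331 and Wars2 by 0.19 ± 0.07 with an adjusted p of 0.0445. With each library set to the 0 h median the value for Farsa turned negative, the calls of Wars2, Ears2, Tars2, Aars2 and Iars were lost as well, and those of Yars2, Fars2, Hars2 and Cars held. With 0.1 in place of 1 added to the FPKM there were 8 calls, or 22.2% of members, beside 36.7% of all transcripts that fell more slowly. The calls of Wars2, Ears2 and Tars2 were lost there too.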

How the results depend on the processing

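The number of members called at 0 h was 14 and ranged from 2 to 13 when 1 replicate was left out. It was 8 with the replicate number as a block and 8 with each library divided by its sum without Lars2, an alternative chosen after seeing the data, and 11 to 14 in the other alternatives. For half-lives the count of 0 ranged from 0 to 2 without 1 replicate and was 1 with libraries rescaled to the mean decay curve and 0 with the replicate block. The count of members that fell was 8 in OPCs and 3 in OLs with each library set to the 0 h median, and 19 in OPCs and 12 in OLs without the 6 h libraries. In OPCs it ranged from 25 to 31 without 1 replicate, or 69.4% to 86.1%, beside 76.4% to 81.4% of all transcripts. For the difference in slope the count of 10 ranged from 1 to 10 without 1 replicate, was 1 without the 6 h libraries and 10 with the replicate block. Without 1 OL replicate the lone OL sample is assumed to vary like the OPC replicates for levels and half-lives, and for slopes in OLs the spread is that of the 5 times of 1 replicate. The cause of these changes was not tested. By the study's account each OL replicate has a matching OPC replicate, and which ones match is not given in the sources used here. The block assumes that equal numbers match, which the data do not show, since deviations of same-numbered samples correlated at 0.059 and 0.010 at 0 h and at -0.0016 and -0.105 for half-lives.

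With each library set to the 0 h median, slopes in log2 units per h changed sign, with a call on at least 1 of the scales, for 17 members in OPCs, to 0.20 for Aars, 0.44 for Dars, 0.0727 for Farsa, 0.40 for Gars, 0.38 for Hars, 0.41 for Iars2, 0.45 for Kars, 0.28 for Mars, 0.32 for Nars, 0.20 for Nars2, 0.28 for Qars, 0.26 for Sars, 0.00604 for Tarsl2, 0.28 for Vars, 0.11 for Vars2, 0.41 for Wars and 0.20 for Yars. In OLs they did so for 22 members, to 0.11 for Aars, 0.21 for Dars, 0.23 for Eprs, 0.0355 for Fars2, 0.0693 for Farsa, 0.0829 for Farsb, 0.13 for Gars, 0.0132 for Iars, 0.0648 for Iars2, 0.22 for Kars, 0.16 for Lars, 0.18 for Mars, 0.12 for Nars, 0.13 for Nars2, 0.14 for Qars, 0.18 for Sars, 0.0631 for Tars2, 0.21 for Vars, 0.21 for Vars2, 0.23 for Wars, 0.10 for Yars and 0.0128 for Yars2. Without the 6 h libraries the OL slope turned to 0.021 for Cars2. The difference in slope turned to -0.24 for Dars, -0.0134 for Farsa, -0.24 for Kars, -0.21 for Nars and -0.19 for Wars with each library set to the 0 h median. For single members at 0 h, a call was lost in 60 of the member and setting pairs, gained in 3 and kept its side of the threshold in 368. Read depth is unknown, so what depth limits could not be judged.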
